A study of Arabidopsis thaliana with 12 samples.

Results

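Calcium and calmodulin signalling genes were followed in Arabidopsis thaliana Col-0 roots exposed to gold. Members were chosen by the words calcium, calmodulin, calcineurin or EF-hand in the array description, leaving out any description with the word receptor. This rule found 25 transcript clusters, each a gene as the array defines it, of 2762 in the 2 deposited tables. All 25 have listed exons and 3 of them also appear in the gene table, while 22 appear in the exon table alone. The descriptions are those of the array annotation, and whether each member acts in calcium signalling was not tested.

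The gold-treated group was hydroponic seedlings aged 12 days whose roots stood in a 10 ppm gold solution (HAuClO4 in the labels, HAuCl4 in the methods) for 12 h at pH 4.2, without nutrient medium. The control group stood in distilled water at pH 4.2, so both groups had been moved out of their medium. Each group had 3 biological replicates of pooled seedlings on 3 AraGene-1_0-st arrays, and the 12 deposited samples are gene-level and exon-level summaries of these 6 arrays. The values are the authors' average log2 signals of each group, so no SD between replicates, interval or test of a member is given here. Signals were rounded to 0.01 on the log2 scale. The number of arrays limits the precision. The root label could not be checked against cell type markers, since the tables hold changed features only.

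Calcium ions act as a second messenger in plant cells. Stimuli such as salt, drought and pathogens raise Ca2+ in the cytosol, and sensor proteins that bind it through EF-hand loops pass the signal on. Calmodulins and calmodulin-like proteins do so by binding targets, calcineurin B-like proteins (CBLs) by binding CBL-interacting kinases, and calcium-dependent protein kinases (CPKs) by their own kinase domain. Pumps and exchangers bring the cytosolic level down again.

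Most calcium and calmodulin exons in the table had a lower signal in gold-treated roots than in control roots. Of the 47 listed exons of the members, 38 were lower and 9 higher. The lower share was 80.9%, against 45.4% of all 4977 listed exons. According to the methods, the tables hold features past a filter of a more than 2-fold change with a low p-value, and no listed difference is smaller than 1 on the log2 scale. Every member thus had to differ, and members that changed less were not analysed here. How large a part of the calcium gene families changed cannot be read from them. In whole roots, fewer cells of a type and less RNA per cell cannot be told apart.

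Exons of 1 gene are not independent, and AT1G29025 alone holds 9 of the 38 lower exons. Counted by transcript cluster, 18 of the 25 members had lower exons only and 7 had higher exons only. That is 72.0% lower, against 49.4% of the 2740 clusters in the exon table. None of the 11 members with 2 or more listed exons had exons in both directions, as against 27 of the 927 such clusters in the whole table. The members lie on all 5 chromosomes, with 7 on chromosome 1, 2 on chromosome 2, 3 on chromosome 3, 7 on chromosome 4 and 6 on chromosome 5.

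**Figure D1:**
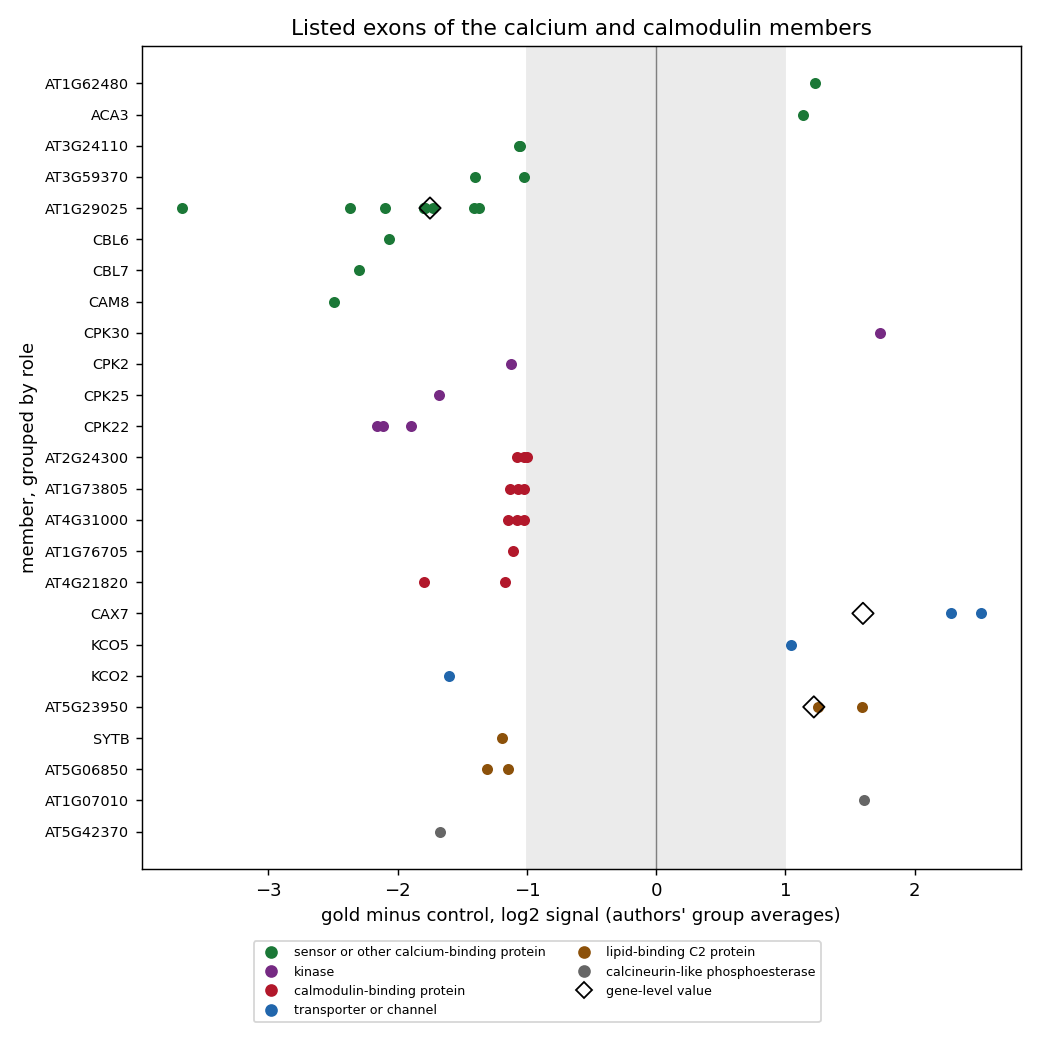
Difference of the average log2 signals, gold minus control, for each of the 47 listed exons (dots) of the 25 members (rows, coloured by role), with the gene-level value (open diamonds) for the 3 members that have one. The grey band from -1 to 1 holds no value because only changes of more than 2-fold are listed, and 38 of the dots lie to its left.

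A difference of at least 3-fold was seen in 22 of the 47 member exons, 17 of them lower and 5 higher in gold-treated roots. This is 46.8%, against 31.8% of all listed exons, and without AT1G29025 it is 15 of 38 exons, or 39.5%. Taking the brighter of the 2 groups for each exon, the median log2 signal was 7.48 for member exons and 7.66 for all listed exons. A signal below 6 in both groups, treated here as low, was found in 10 member exons, or 21.3%, and in 22.3% of all listed exons.

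**Figure D2:**
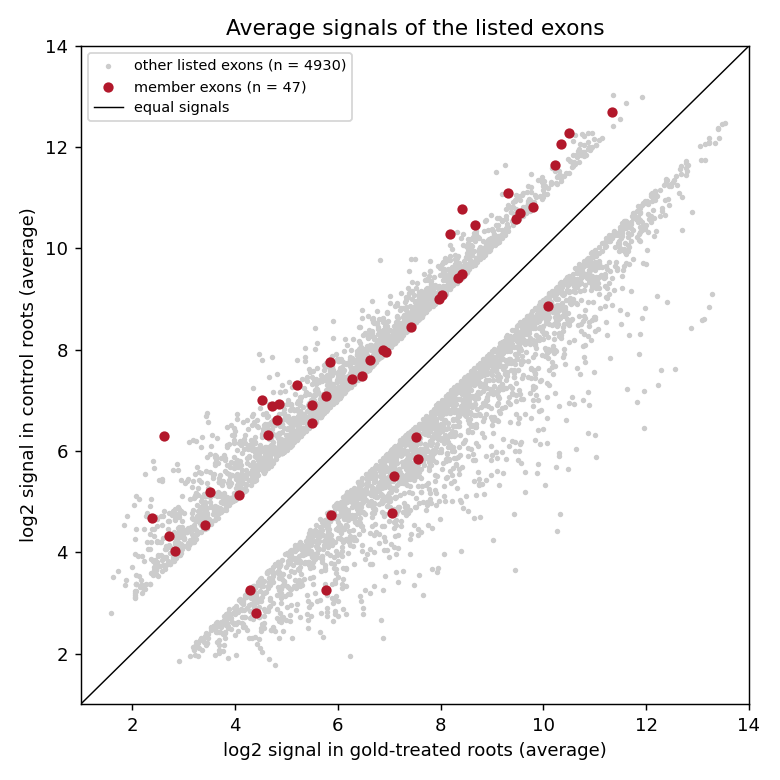
Average log2 signal of each listed exon in gold-treated roots (horizontal axis) and control roots (vertical axis), with the 47 member exons in red and all other listed exons in grey. Member exons spread over the range of signals, and 38 of them lie above the line of equal signals, which is the side of lower signal in gold.

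In the gene table, 2 of the 3 members were higher in gold-treated roots, against 65.4% of all 800 listed genes. The higher ones were CAX7 and AT5G23950, and the lower one was AT1G29025. With so few genes the share carries little information.

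AT1G29025, described as a calcium-binding EF-hand family protein and located on chromosome 1, was the lower one of the 3 members that have a gene-level value. This log2 signal was 9.60 in gold-treated roots and 11.35 in control roots, a difference of -1.75 or 3.36-fold lower. By size this was number 20 among the 277 genes with a lower signal. Its function is not given by the annotation beyond the calcium-binding fold.

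All 9 listed exons of AT1G29025, which carry consecutive probe set numbers, were lower in gold-treated roots. For 8 of them the log2 signal lay between 8.18 and 11.33 in gold-treated roots and between 10.28 and 12.70 in control roots, with differences from -2.37 to -1.37. The exon with the lowest probe set number had 2.63 in gold-treated roots and 6.30 in control roots. Its difference of -3.67, or 12.7-fold lower, was the largest of the 2262 lower exons of the whole table. Its signal in gold-treated roots was below 6, the only such value of the gene, and the part of this low signal in the size of the difference was not tested.

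**Figure D3:**
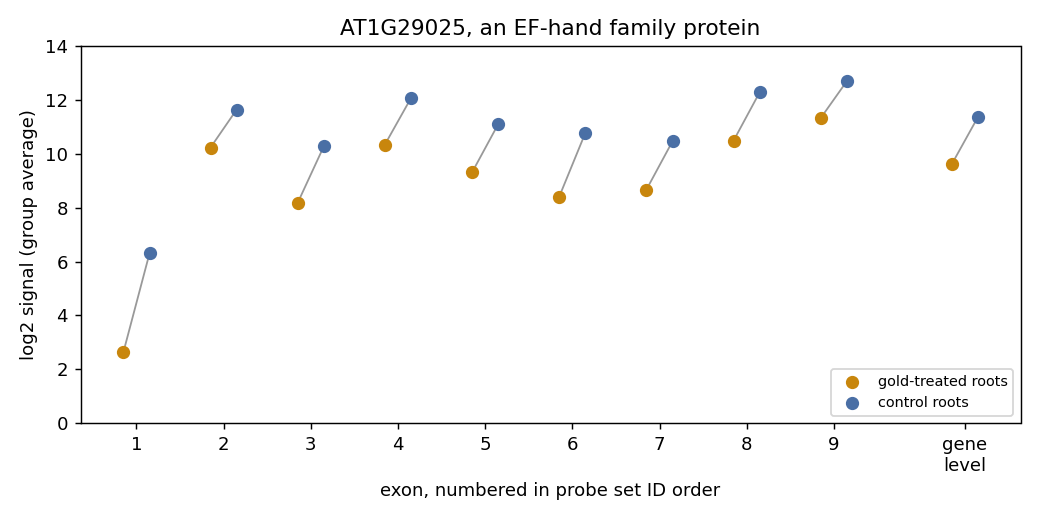
Average log2 signal of the 9 listed exons of AT1G29025 and of the whole gene in gold-treated roots (orange, left of each pair) and control roots (blue, right). Every pair slopes upward to the control value, and exon 1, with 2.63 in gold-treated and 6.30 in control roots, has the steepest slope.

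CAM8, CBL6 and CBL7 were each lower in gold-treated roots in the 1 exon listed for them, and none has a gene-level value here. CAM8, a calmodulin-like protein also named CML8, had 1 listed exon with a log2 signal of 4.52 in gold-treated roots and 7.01 in control roots, 5.62-fold lower. CBL6, a calcineurin B-like protein, had 1 listed exon at 4.86 in gold-treated roots and 6.93 in control roots, 4.20-fold lower. CBL7, of the same family, was dim in both groups, with 2.38 in gold-treated roots and 4.68 in control roots, 4.92-fold lower. CAM8 and CBL6 were below 6 in gold-treated roots only. The part of these low signals in the folds was not tested. The difference of -2.49 in CAM8 was the largest fall of any member exon apart from exon 1 of AT1G29025.

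The rest of the calcium-binding proteins moved less. AT3G24110, described as the putative calcium-binding protein CML22, had 2 exons at 5.50 and 4.08 in gold-treated roots, against 6.55 and 5.14 in control roots. AT3G59370, described as a vacuolar calcium-binding protein, had 2 exons at 5.51 and 7.42 in gold-treated roots, against 6.91 and 8.44 in control roots. AT1G62480 has the same description and went the other way, with 10.10 in gold-treated roots and 8.87 in control roots in 1 exon, 2.35-fold higher. So the pair of genes that share the vacuolar description had opposite directions.

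The remaining member of this role cannot be given to 1 gene. Its transcript cluster carries the symbol ACA3, the alpha carbonic anhydrase of AT5G04180, and also names the neighbouring AT5G04170, described as the putative calcium-binding protein CML50. The 1 listed exon had 5.87 in gold-treated roots and 4.73 in control roots, 2.20-fold higher. In all, 6 of the 8 clusters of sensors and other calcium-binding proteins were lower in gold-treated roots and 2 were higher.

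Among the calcium-dependent protein kinases, which join a kinase domain to a calmodulin-like one, 3 were lower in gold-treated roots and 1 was higher. CPK22 had 3 listed exons at 4.72, 5.20 and 5.85 in gold-treated roots, against 6.88, 7.31 and 7.75 in control roots. These differences of -2.16, -2.11 and -1.90 were close to each other, 3.73- to 4.47-fold lower. All 3 signals in gold-treated roots were below 6, and the part of this in the folds was not tested. CPK22 lies between CPK27 and CPK21 in the TAIR10.1 gene order, and signal shared between such related kinases was not tested.

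CPK25 and CPK2 were lower in gold-treated roots in 1 exon each. CPK25 had 4.64 in gold-treated roots, a low signal, and 6.32 in control roots, 3.2-fold lower. CPK2 had 6.88 in gold-treated roots and 8.0 in control roots, 2.17-fold lower. CPK30, known for a part in nitrate signalling, had 7.57 in gold-treated roots and 5.84 in control roots in its 1 listed exon, 3.32-fold higher. None of these kinases has a row in the gene table analysed here.

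Calmodulin-binding proteins were lower in 12 of 12 listed exons, in 5 transcript clusters. Over the whole table, 45.4% of exons were lower and 49.4% of clusters had lower exons only. A role of 5 clusters gives little information on direction. AT1G73805 is SARD1, a member of the plant calmodulin-binding protein family that promotes salicylic acid synthesis in immunity, although SARD1 itself is known not to bind calmodulin. Its 3 exons had 9.46, 9.79 and 8.02 in gold-treated roots, against 10.59, 10.81 and 9.09 in control roots. The differences were small and even, at -1.13, -1.02 and -1.07.

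The genes AT4G31000 and AT2G24300, both described as calmodulin-binding protein, showed the same narrow range. AT4G31000 had 8.34, 9.55 and 7.98 in gold-treated roots, against 9.42, 10.70 and 9.0 in control roots. AT2G24300 had 6.48, 8.41 and 6.94 in gold-treated roots, against 7.48, 9.49 and 7.96 in control roots. The smallest of these, a difference of -1.0, sits at the limit for being listed.

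AT4G21820, described as a calmodulin-binding protein, had 2 exons at 6.62 and 4.82 in gold-treated roots, against 7.79 and 6.62 in control roots. AT1G76705 had 3.42 in gold-treated roots and 4.53 in control roots in 1 dim exon. The median difference over the 12 exons of this role was -1.08. This is nearer to the listing limit than the -1.39 of all lower member exons and the -1.26 of all lower exons in the table. Without AT1G29025 the median of the lower member exons was -1.15, but that set still includes the 12 exons of this role. By role, the median of the lower exons was -1.90 for kinases and -1.19 for lipid-binding proteins. It was -1.79 for sensors and other calcium-binding proteins, with AT1G29025 included. The single lower exons of the calcineurin-like phosphoesterases and of the transporters and channels had -1.67 and -1.60.

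Of the 3 transporters and channels, 2 were higher in gold-treated roots and 1 was lower. CAX7, described as a calcium exchanger, belongs to the proteins that move cations across membranes against another ion. Its gene-level log2 signal was 4.98 in gold-treated roots and 3.38 in control roots, a difference of 1.60 or 3.03-fold higher, number 184 among the 523 genes with a higher signal. Its 2 listed exons had 7.05 and 5.77 in gold-treated roots, against 4.77 and 3.26 in control roots.

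These exons of CAX7 were 4.86- and 5.70-fold higher, more than the gene as a whole, and had the largest rises of all member exons. Exons that did not pass the filter are not listed, so the exon side of this comparison leaves them out. The exon with the larger rise and the gene-level value both had a signal below 6 in both groups, and the part of that low signal in these folds was not tested. The other 2 members of this role are potassium channels whose descriptions call them calcium-activated. KCO5 had 4.29 in gold-treated roots and 3.25 in control roots, 2.06-fold higher. KCO2 had 2.72 in gold-treated roots and 4.32 in control roots, 3.03-fold lower, and both channels rest on 1 dim exon.

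Calcium-dependent lipid-binding proteins carry C2 domains, which attach to membranes when calcium is bound. AT5G23950 was higher in gold-treated roots at the gene level, with 6.68 in gold-treated roots and 5.46 in control roots, 2.33-fold. Its 2 listed exons had 7.53 and 7.09 in gold-treated roots, against 6.28 and 5.50 in control roots. AT5G06850 is FTIP1, named for its interaction with the flowering protein FT, and its 2 exons had 5.78 and 6.27 in gold-treated roots, against 7.09 and 7.42 in control roots. SYTB, a synaptotagmin, had 2.84 in gold-treated roots and 4.03 in control roots in 1 dim exon. The role thus holds 1 higher and 2 lower members.

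Calcineurin-like phosphoesterases share a metal-binding phosphatase fold with animal calcineurin, and the word in their description does not make them calcium sensors. AT1G07010, the phosphatase SLP1, had 4.42 in gold-treated roots and 2.81 in control roots, 3.05-fold higher. AT5G42370 had 3.52 in gold-treated roots and 5.19 in control roots, 3.18-fold lower. Both values come from 1 exon with a low signal.

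Of the 14 members with a single listed exon, 8 had an exon with a signal below 6 in both groups, 3 higher and 5 lower in gold-treated roots. These 8 are AT1G07010, ACA3, KCO5, CBL7, AT5G42370, KCO2, SYTB and AT1G76705, and they are named here after their values were seen. A single exon was listed for 56.0% of the members and for 66.2% of all clusters. A gene-level row was present for 12.0% of the members and for 28.4% of all clusters.

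Other genes of the pathway, matched by family names in the symbol or description and lying outside the description rule, gave 27 transcript clusters with 69 listed exons. Of these clusters 19 were lower and 8 higher in gold-treated roots, 70.4% lower, against the 49.4% of all clusters given above. Of the exons 45 were lower and 24 higher, 65.2% lower, against 45.4% of all listed exons. Here too exons of 1 gene are not independent. CIPK17 alone holds 11 of the higher exons and AT4G25090 holds 12 of the lower ones. The families differed in direction, and 3 of these clusters name more than 1 locus, so that their signal cannot be given to 1 gene.

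Clusters naming CBL-interacting kinases, the partners of the CBL sensors, were higher in gold-treated roots in 4 of 5 cases and lower in 1. Over all clusters with listed exons, 49.6% had higher exons only. The lower cluster, AT2G34170, names a hypothetical protein beside CIPK13, so its signal cannot be given to that kinase. Among the higher ones, AT5G21326 is also described as UV-B resistance 8. It had 1 exon at 6.14 in gold-treated roots and 5.12 in control roots. CIPK17 had a gene-level log2 signal of 9.09 in gold-treated roots and 6.45 in control roots, a difference of 2.64. All 11 of its listed exons were higher, by 3.71- to 10.6-fold. CIPK3 was higher in 1 exon, by 5.62-fold, with 6.01 in gold-treated roots, barely above the limit of 6, and 3.52 in control roots. CIPK9 was higher in 2 exons, by 2.48- and 7.46-fold, but both had a signal below 6 in both groups. The sensors CBL6 and CBL7 were lower in 1 exon each, as given above, and whether they pair with these kinases was not tested. No CBL has a row in the gene table analysed here.

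Channels, pumps and calmodulin-binding scaffolds were mainly lower, though each family holds few clusters. The share of lower exons over the whole table was 45.4%. The Ca2+-transporting ATPases ACA9, ACA4 and ECA2, which pump calcium out of the cytosol, were lower in all 7 listed exons, and ACA9 holds 5 of these. Of the 7 pump exons, 3 had a signal below 6 in both groups, among them the 1 listed exon of ECA2. The cyclic nucleotide-gated channels CNGC14 and DND1 were lower in all 4 of their exons, but DND1 had 1 dim exon at 3.82 in gold-treated roots and 4.89 in control roots. Clusters naming IQ-domain proteins, which bind calmodulin, were lower in 9 of 9 exons over 7 clusters. However, iqd33 also names a nucleic acid-binding protein and CYP711A1 a cytochrome P450, so neither signal can be given to an IQ-domain gene. The exon of CYP711A1 was dim, with 2.92 in gold-treated roots and 4.43 in control roots. IQD19 was lower at the gene level too, with 6.81 in gold-treated roots and 7.82 in control roots.

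Glutamate receptor-like genes, which encode calcium-permeable channels, were split, with 3 clusters higher and 5 lower in gold-treated roots. ATGLR1.2 had a gene-level signal of 9.19 in gold-treated roots and 7.73 in control roots, and GLR2.5 had 8.95 in gold-treated roots and 7.72 in control roots. GLR2.1 had 7.40 in gold-treated roots and 8.46 in control roots, and GLR2.3 had 5.56 in gold-treated roots and 7.23 in control roots. Directions thus differed within the GLR2 group.

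AT4G25090, described as a respiratory burst oxidase, belongs to an NADPH oxidase family that makes superoxide at the cell surface and carries EF-hands. Its gene-level signal was 9.74 in gold-treated roots and 11.06 in control roots, a difference of -1.32. All 12 of its listed exons were lower in gold-treated roots, by 2.19- to 5.17-fold. The 5.17-fold exon had a low signal of 3.95 in gold-treated roots, against 6.32 in control roots, and the next largest fall was 2.89-fold.

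**Figure D4:**
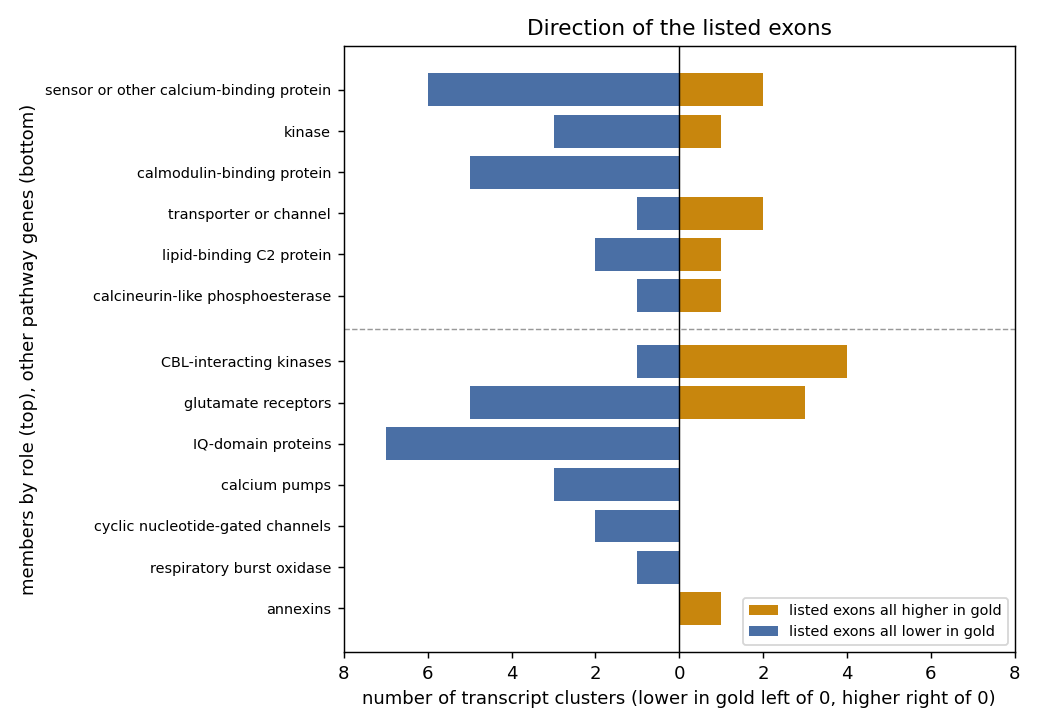
Number of transcript clusters whose listed exons were all higher in gold-treated roots (orange, right of 0) or all lower (blue, left of 0), for the members by role (above the dashed line) and for other pathway families (below it). Calmodulin-binding proteins, with 5 lower, and clusters naming IQ-domain proteins, with 7 lower, have no bar on the right. Of the clusters naming CBL-interacting kinases, 4 of 5 were higher. Below the dashed line, 3 clusters name more than 1 locus.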

How the data were processed

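Biotin-labelled cDNA from root RNA was hybridised to AraGene-1_0-st arrays. The authors summarized the probes with RMA in Affymetrix Expression Console, per gene and per exon, and contrasted gold with control by ANOVA in the Transcriptome Analysis Console. The deposited log2 signals are the authors' bi-weight averages over the 3 arrays of a group, for features with a more than 2-fold change and a low p-value, on the tair10 annotation. The tables are longer than the lists the study counts under this filter, for a reason not given in the sources used here. Columns with the authors' fold changes, p-values and FDR were not used. No per-array value entered the work, so nothing was fitted or tested across genes.

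From the 4 average columns, the gold minus control difference was taken per feature. Its fold size is 2 to the power of the absolute difference. Exons were joined to members by transcript cluster. Roles were assigned by words in the description. All 26 loci of the members matched the TAIR10.1 gene table of RefSeq, which gave synonyms and neighbours. The arithmetic was tested on simulated data. Members and lists were chosen with earlier results of these data known. The rule for named genes took members in the gene table, those with 2 or more exons, and up to 8 rises and 8 falls among single exons of signal at least 6. Only 6 single-exon members reached that signal, and the other 8 are named after their values were seen, so all 25 members are named. Sequences were not analysed here. Python 3.11.15, numpy 2.4.6 and pandas 2.3.3 were used.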

Additional observations from a re-analysis of the deposited data

How the results depend on the processing

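Averages without single arrays give no error, so these limits concern counting only. No paired analysis was possible because the tables hold 1 average per group and no values by replicate; for the same reason no replicate could be left out. Of the 47 member exons, 9 were higher and 38 lower in gold-treated roots. At a difference of at least 3-fold these were 5 and 17, and with a signal of at least 6 they were 5 and 32. Counting clusters gave 7 and 18. Of the 3 members in the gene table, the 2 higher ones became 1 at 3-fold and 1 at a signal of at least 6, and the 1 lower one became 0 without AT1G29025. Keeping receptor descriptions gave 10 higher and 38 lower exons. Leaving out the calcineurin-like phosphoesterases gave 8 and 37, and clusters naming 1 locus gave 8 and 38. Without AT1G29025 there were 9 higher and 29 lower exons. Leaving out AT1G29025 and keeping clusters of 1 locus were chosen after seeing the data. The median difference of the member exons, -1.15, was -1.17 with a signal of at least 6, -1.12 over clusters and -1.10 without AT1G29025. No listed value lies between -1 and 1, so such a median describes only the more frequent direction. Averaged over listed exons, the difference was -2.00 for AT1G29025, 1.42 for AT5G23950 and 2.39 for CAX7, against -1.75, 1.22 and 1.60 at the gene level. Exons that did not pass the filter do not enter these exon averages. The cause of these changes was not tested.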

Other observations

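Of the genes next to the members in the TAIR10.1 order, those after AT4G31000 and AT5G06850 were listed in the gene table with the opposite direction. AT4G31010, next to AT4G31000, had a log2 signal of 9.15 in gold-treated roots and 7.61 in control roots, and 10 of its exons were listed. PGIP1, which encodes an inhibitor of fungal polygalacturonases and lies next to AT5G06850, had 12.34 in gold-treated roots and 11.12 in control roots. ANNAT7, an annexin and so a calcium-dependent membrane-binding protein, was higher in gold-treated roots by 2.68-fold in 1 exon. CPK27 and CPK21 beside CPK22, and CBL3 beside CBL7, have no row in the tables used here.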
